A study of Saccharomyces cerevisiae with 8 samples.

Results

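The PIR genes of Saccharomyces cerevisiae encode secreted proteins with internal repeats that are built into the cell wall. The 4 members described here are PIR1, PIR3, HSP150 (also called PIR2) and CIS3 (also called PIR4). They were chosen by name, out of 6002 protein-coding genes of the nuclear chromosomes. A start peak was defined as a CAGE-seq peak on the strand of the gene whose 5′ end lay between 300 bp upstream and 50 bp downstream of the start codon. All 4 had such a peak in at least 4 of 8 libraries and were among the 2458 genes that could be tested.

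CAGE-seq captures capped 5′ ends of RNA and so maps where transcription starts. The 8 libraries came from BY4741, a laboratory strain that cannot make histidine, leucine, methionine or uracil, carrying either synthetic HPRT1, a human locus of about 100 kb, or HPRT1R, the same sequence reversed but not complemented. In the episome strains the locus was on a yeast artificial chromosome with a LEU2 marker and cells were grown in SC-Leu. In the integrated strains the locus lay in chromosome XI, to the right of PIR3, and cells were grown in YPD. Each of the 4 combinations of locus and context had 2 replicate colonies, all cultured at 30 °C for 6 h from an OD of 0.1 to about 0.6. Medium and genomic context changed together in this design and cannot be told apart in any difference between episome and integrated libraries.

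PIR proteins carry a signal peptide, are O-mannosylated in the secretory pathway and cut by the protease Kex2 after the pro-sequence. They are bound directly to the beta-glucan of the wall through an alkali-labile link at glutamines of the repeats, unlike the proteins that reach the wall by way of a GPI anchor. Many wall genes of this kind respond to the cell wall integrity pathway, in which sensors at the membrane signal through Rho1, Pkc1 and a MAP kinase cascade to Slt2 and the transcription factor Rlm1. Pir1 and Pir3 are structural wall proteins, Hsp150 is in addition shed into the medium and is induced by heat, and Cis3 is a short member of the family.

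The 4 genes lie as pairs in the R64 assembly. PIR1 (YKL164C, chromosome XI, 141794 to 142819, reverse strand) and PIR3 (YKL163W, 144401 to 145378, forward strand) are transcribed away from each other, with 1581 bp between their start codons. The insertion was made at YKL162C-A, and PIR3 is the PIR gene nearest to it. Its coding sequence ends 972 bp before the last native base, and the start codons of PIR3 and PIR1 lie 1949 bp and 3531 bp from that base. HSP150 (YJL159W, chromosome X, 120449 to 121690, forward strand) and CIS3 (YJL158C, 122265 to 122948, reverse strand) are transcribed towards each other with 574 bp between their ends, and served as the comparison away from the insertion. The remaining gene of the family, PIR5 (YJL160C, chromosome X, 117962 to 118825), had no start peak in any of the 8 libraries. None of the nearest outer neighbours had one either, which are MCD4 next to PIR1, YKL162C to the right of the insertion and FAR1 next to CIS3.

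The sequence before each start peak is shown because it holds the promoter elements that the members do or do not have in common. Each window holds the 250 bases before the 5′ end called most often and then that base, written 5′ to 3′ on the strand of the gene from the R64 genome. Capitals mark matches, on either strand, to the letters given in the next paragraph. The windows are chrXI:142898-143148 on the reverse strand for PIR1, chrXI:144071-144321 on the forward strand for PIR3, chrX:120144-120394 on the forward strand for HSP150 and chrX:122998-123248 on the reverse strand for CIS3.
PIR1: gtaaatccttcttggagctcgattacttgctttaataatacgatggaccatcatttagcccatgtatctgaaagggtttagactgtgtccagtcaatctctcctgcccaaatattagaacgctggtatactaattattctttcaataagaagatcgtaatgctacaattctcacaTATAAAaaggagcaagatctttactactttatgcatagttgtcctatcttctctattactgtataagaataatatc
PIR3: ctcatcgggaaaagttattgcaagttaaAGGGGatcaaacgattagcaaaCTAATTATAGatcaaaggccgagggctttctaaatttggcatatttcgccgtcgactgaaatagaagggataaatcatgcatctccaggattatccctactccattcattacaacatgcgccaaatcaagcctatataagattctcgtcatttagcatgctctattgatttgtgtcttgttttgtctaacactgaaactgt
HSP150: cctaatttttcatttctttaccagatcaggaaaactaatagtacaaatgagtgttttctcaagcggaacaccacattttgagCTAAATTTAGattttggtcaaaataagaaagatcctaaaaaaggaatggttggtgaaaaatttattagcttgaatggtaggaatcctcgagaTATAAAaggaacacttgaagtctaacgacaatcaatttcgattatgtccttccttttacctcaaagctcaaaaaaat
CIS3: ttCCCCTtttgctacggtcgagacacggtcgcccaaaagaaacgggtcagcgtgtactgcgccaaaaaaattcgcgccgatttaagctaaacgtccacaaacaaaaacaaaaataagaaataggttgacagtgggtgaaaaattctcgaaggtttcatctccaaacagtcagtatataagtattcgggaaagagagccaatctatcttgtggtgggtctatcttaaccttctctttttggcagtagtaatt

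The windows were searched for letters of known yeast elements. The letters TATAAA, one form of the TATA box, began 75 bases before the 5′ end of PIR1 and 76 bases before that of HSP150, and these exact letters were not found in the windows of PIR3 and CIS3, both of which hold tatataag, another form of it. They were present in 48.2% of the 1190 windows of genes with a start peak in all 8 libraries. The letters CTA and TAG with 4 bases between them, which fit the site described for Rlm1, were found 200 bases before the 5′ end of PIR3 and 168 bases before that of HSP150, and in 4.7% of the 1190 windows. The letters AGGGG of the stress response element were found in PIR3 at 222 bases and, as the complement CCCCT, in CIS3 at 248 bases, and in 26.6% of windows. The letters CACGAAA and CGCGAAA of the Swi4 and Swi6 site were found in none of the 4 windows and in 6.8% of all. None of these motifs overlapped another in the windows shown, and a match or its absence says nothing about binding. The windows of PIR1, PIR3, HSP150 and CIS3 had a GC content of 34.3%, 38.2%, 31.9% and 41.8%, beside a mean of 36.6% over the 1190 windows.

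The 5′ ends of the start peaks were close to the same base in most libraries. PIR1 began at base 142898, 79 bp upstream of the start codon, in 4 of 8 libraries, and the other 4 began between 142901 and 142914. HSP150 began at 120394, 55 bp upstream, in 4 of 8 libraries, at 120393 in HPRT1 integrated replicates 1 and 2, at 120379 in HPRT1R episome replicate 2 and at 120324 in HPRT1R episome replicate 1. CIS3 began at 122998, 50 bp upstream, in 3 of 8 libraries and no further upstream than 123009 in the others. PIR3 had the most variable peak edge, with 144321, 80 bp upstream, in 3 of the 6 libraries that had a peak. It was 144319 in HPRT1R episome replicate 1, and 144266 and 144362 in HPRT1 integrated replicates 1 and 2. The peak at 144362 was low, with 136 reads where the lowest called on that strand had 68. An edge lies where the pileup passes the calling limit, so it can move with peak height. In all 4 members the most frequent 5′ end was a pyrimidine followed by a purine, as in 84.9% of the 1190 genes. A purine at the 5′ end after a pyrimidine was found in 1.8%. Whether the called ends are offset from the first transcribed base was not tested.

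Peak height is given as the number of reads at the summit, recovered from the peak statistics, per 1000000 aligned reads on both strands (RPM). A CAGE read starts at a capped end, so heights are not divided by gene length. Duplicate reads were kept, so several reads can stem from the same capped end. CIS3 had the highest start peaks and PIR3 the lowest. Among the genes with a start peak in a library, CIS3 stood above 94% to 96.4% and HSP150 above 90.4% to 94.9%, while PIR1 stood above 34.7% to 81.1% and PIR3, where it was called, above 7.9% to 68.2%. CIS3 was higher than HSP150 in 7 of 8 libraries, HSP150 higher than PIR1 in 8 of 8, and PIR1 higher than PIR3 in 7 of 8, the exception in both cases being HPRT1 episome replicate 1. Over all libraries the ranges of CIS3 and HSP150 overlapped, as did those of PIR1 and PIR3, whereas the lowest value of HSP150, 505 RPM, was above the highest of PIR1, 204 RPM.

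Libraries held between 6.48 and 8.85 times 1000000 aligned reads. The lowest height called was 8.48 to 9.65 RPM on the forward strand and 13.7 to 14.6 RPM on the reverse strand, so that a start with fewer reads was not detectable. Between 2306 and 2588 genes had a start peak per library. The median difference between integrated and episome libraries over the 2458 genes tested was 0.10 on the log2 scale. It was −0.01 when libraries were scaled by the median of ratios, and differences below are to be read against that shift. In cultures, fewer cells that express a gene and less RNA per cell cannot be told apart.

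PIR1 had a higher mean in integrated than in episome libraries, but the difference did not pass the test over all genes, and whether the groups overlapped depended on the scale. Its start peak reached 41.0 and 156 RPM in HPRT1 episome, 134 and 159 RPM in HPRT1R episome, 196 and 204 RPM in HPRT1 integrated and 196 and 164 RPM in HPRT1R integrated replicates 1 and 2. The lowest integrated library was thus just above the highest episome library, and HPRT1 episome replicate 1 lay far below all others. The mean was 122.5 ± 55.5 RPM in episome and 189.8 ± 17.4 RPM in integrated libraries (SD, n = 4 each). The log2 difference, integrated minus episome, was 0.81 (SE 0.47) with an adjusted p of 0.617 (limma, Benjamini-Hochberg over 2458 genes), and an exact two-sided permutation test gave p = 0.0286, the smallest that 4 against 4 libraries allow. Groups without overlap in this direction were found for 4.68% of the genes tested. With the median of ratios as the scale the groups overlapped, since HPRT1R integrated replicate 2 was at 157 and HPRT1R episome replicate 2 at 161, and the exact permutation p was 0.0571. Without HPRT1 episome replicate 1 the log2 difference was 0.32.

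PIR3 was the only member whose start peak was missing in some libraries. It reached 48.2 and 46.2 RPM in HPRT1 episome, 111 and 52.3 RPM in HPRT1R episome and 77.4 and 18.7 RPM in HPRT1 integrated replicates 1 and 2. It was not called in HPRT1R integrated replicates 1 and 2, where the lowest heights called on that strand were 9.29 and 9.65 RPM. All 4 episome libraries had the peak and 2 of 4 integrated libraries did, and HPRT1 integrated replicate 1 was higher than 3 of the episome libraries, so the groups overlapped.

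With uncalled starts set at the lowest height called, PIR3 had a mean of 64.3 ± 30.9 RPM in episome and 28.8 ± 32.7 RPM in integrated libraries (SD, n = 4 each). The log2 difference was −1.66 (SE 0.68), with an unadjusted p of 0.0391 and an adjusted p of 0.452 (limma, over 2458 genes), and the exact two-sided permutation test gave p = 0.114. The size depends on the treatment of the uncalled libraries. The log2 difference was −0.31 when they were left out and −2.16 when they were set at 0.5 of the lowest height called, and it remained negative under each of the 24 alternatives that gave a value.

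HSP150, the member that is also shed into the medium, was lower in integrated than in episome libraries. Its start peak reached 857 and 923 RPM in HPRT1 episome and 790.4 and 612 RPM in HPRT1R episome replicates 1 and 2. It reached 587 and 505 RPM in HPRT1 integrated and 514 and 576 RPM in HPRT1R integrated replicates 1 and 2. All 4 episome libraries were above all 4 integrated ones. The means were 796 ± 134 and 545 ± 42.0 RPM (SD, n = 4 each). The log2 difference was −0.53 (SE 0.28) with an adjusted p of 0.580 (limma, over 2458 genes), and the exact two-sided permutation test gave p = 0.0286, again the smallest it allows. Groups without overlap in this direction were found for 3.21% of genes.

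CIS3, the neighbour of HSP150 on chromosome X, overlapped between contexts. It reached 757 and 1424 RPM in HPRT1 episome, 1294 and 1108 RPM in HPRT1R episome, 1614 and 990.0 RPM in HPRT1 integrated and 1146 and 1107 RPM in HPRT1R integrated replicates 1 and 2. Both the lowest and the highest library carried HPRT1, and the HPRT1R libraries lay between them. The means were 1146 ± 290 (SD, n = 4) and 1214 ± 274 RPM (SD, n = 4), and the log2 difference was 0.10 (SE 0.34, adjusted p = 0.947 by limma, exact two-sided permutation p = 0.686). It turned to −0.02 with the median of ratios as the scale and to −0.12 without HPRT1 episome replicate 1.

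**Figure D1:**
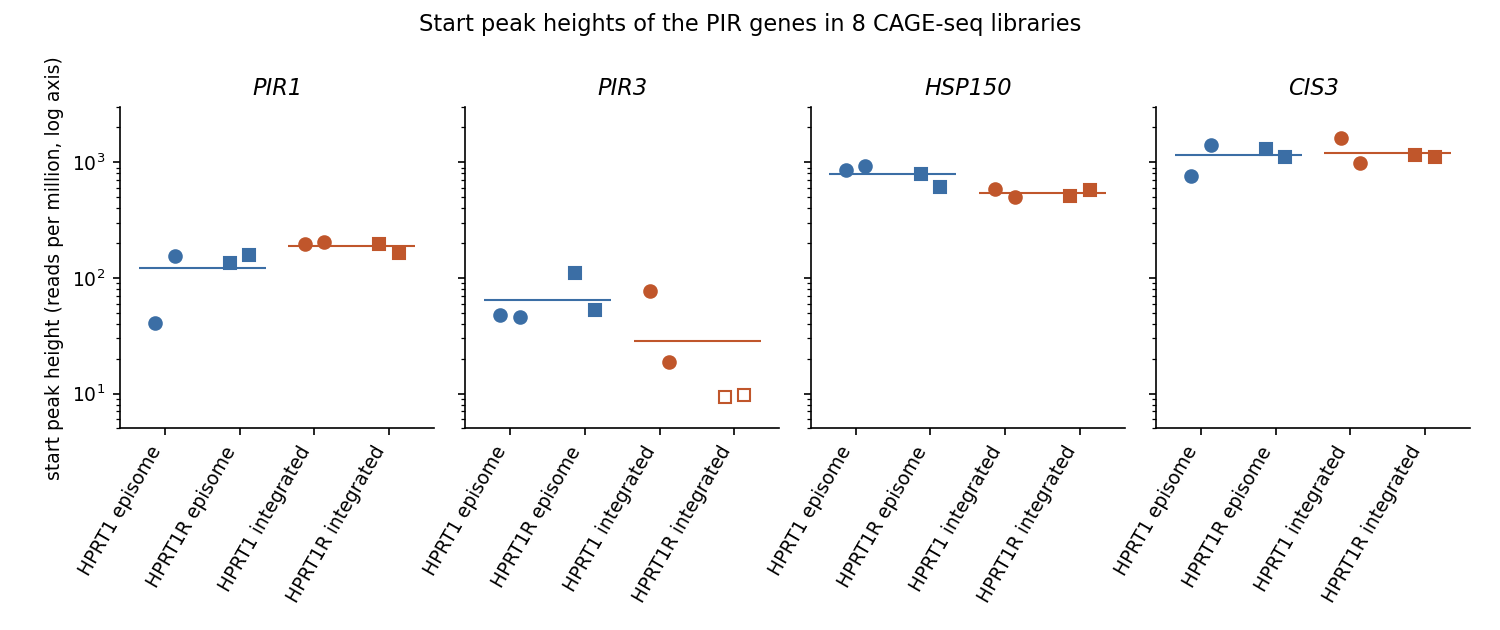
Start peak height of each PIR gene in RPM (log axis) by group, with 1 point per library, circles for HPRT1, squares for HPRT1R, and a line at the mean of the 4 episome (blue) or 4 integrated (orange) libraries. Open squares are placed at the lowest height called in the 2 libraries without a PIR3 peak, and PIR1 at 41.0 RPM in HPRT1 episome replicate 1 stands apart from the other 7 libraries.

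Of the 2458 genes tested, 8 differed between contexts at an adjusted p of 0.05, or 0.325%, with 3 higher and 5 lower in integrated libraries, and 256 had an unadjusted p below 0.05. None of the 4 PIR genes was among the 8. The fold enrichment deposited for HSP150 and CIS3 was 45.25 to 49.80 in every library, at the ceiling of about 50 that a local background over 10 kb imposes. On that scale HSP150 differed by −0.05, and the difference in reads was not visible. For PIR1 the fold enrichment was 3.795 in HPRT1 episome replicate 1 and 12.35 to 19.6 in the other libraries. For PIR3 it was 2.87 to 18.25 in the 6 libraries with a peak.

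Within a library, the ratio of neighbours does not depend on depth. PIR3 had 1.18 times the height of PIR1 in HPRT1 episome replicate 1 and 0.296 times in replicate 2, 0.827 and 0.329 times in the HPRT1R episome replicates, and 0.396 and 0.0917 times in the HPRT1 integrated replicates. In the HPRT1R integrated replicates, where PIR3 was not called, the lowest height called gave ratios of 0.0475 and 0.0587. That height is a stand-in and need not bound an uncalled start. With these values, episome and integrated libraries overlapped only through HPRT1 integrated replicate 1. HSP150 had 1.13, 0.648, 0.611 and 0.553 times the height of CIS3 in the 4 episome libraries and 0.364, 0.510, 0.449 and 0.521 times in the 4 integrated libraries, in the same order. No test was run on these ratios, and how often ratios of other gene pairs separate the contexts was not counted. They share the libraries and heights of the comparison above.

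**Figure D2:**
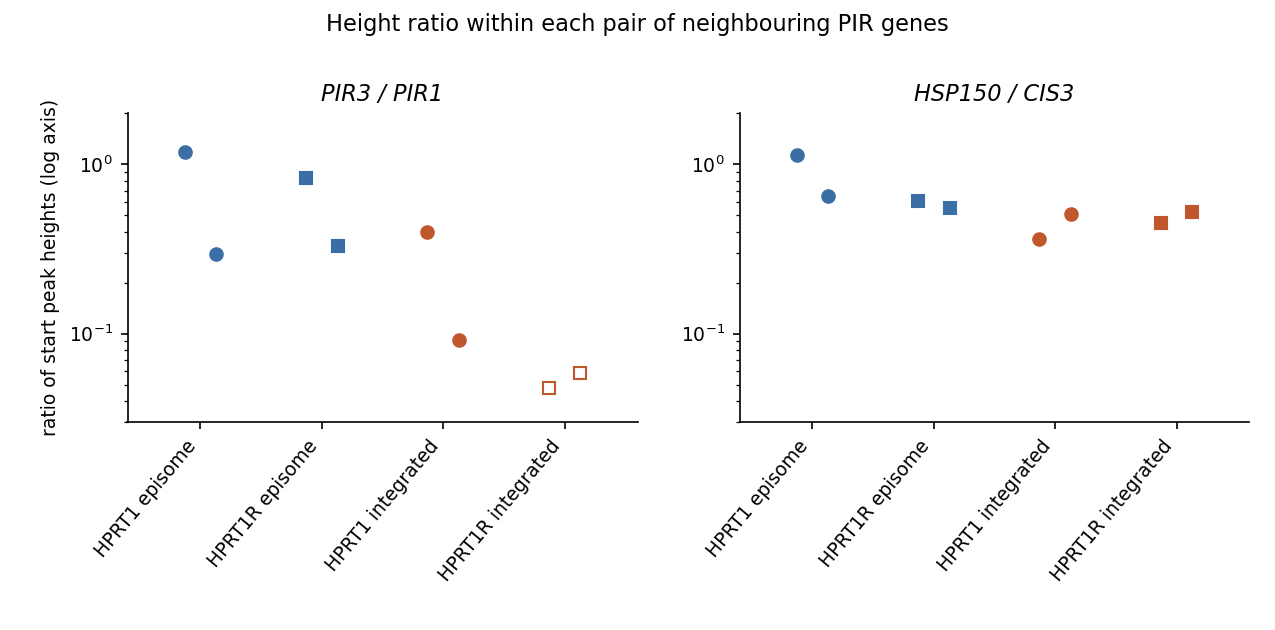
Ratio of start peak heights within each library (log axis, no unit) for PIR3 over PIR1 and HSP150 over CIS3, with 1 point per library by group. Open squares use the lowest height called in place of PIR3 in libraries without its peak. HSP150 over CIS3 was 0.553 to 1.13 in episome and 0.364 to 0.521 in integrated libraries.

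Strains with HPRT1R and HPRT1 were compared to ask whether the sequence of the foreign locus went with a difference at these genes. Reversed without complementing, HPRT1R is a different sequence and not HPRT1 in the other orientation. The log2 difference, HPRT1R minus HPRT1, was 0.36 for PIR1, −0.66 for PIR3, −0.18 for HSP150 and 0.02 for CIS3, with adjusted p between 0.953 and 0.996 (limma, over 2458 genes). The exact two-sided permutation p was 0.800, 0.571, 0.514 and 0.914 (4 against 4 libraries), and the groups overlapped for each member. Of all genes tested, 0 were called (0%) by limma, with 138 at an unadjusted p below 0.05.

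The difference between contexts was then compared between the strains. For PIR3 it was more negative in HPRT1R than in HPRT1 strains by −2.69 on the log2 scale (SE 1.03, unadjusted p = 0.0358, adjusted p = 0.721 by limma), which rests on the 2 libraries without a peak. In the HPRT1 strains, 1 integrated library was above and 1 below both episome libraries. The corresponding values were −1.02 (SE 0.91) for PIR1, 0.35 (SE 0.54) for HSP150 and −0.37 (SE 0.68) for CIS3, with adjusted p of 0.883 for PIR1 and 0.953 for both others. By limma, 0 genes were called in this comparison, and 163 had an unadjusted p below 0.05.

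Peaks other than start peaks near PIR1 and PIR3 were few, and 8 of the 9 listed around both pairs came from integrated libraries. Those 8 include 1 peak that recurs in 4 libraries, described next. Over the genome, a library had 3106 to 3197 peaks of any kind in episome and 3157 to 3470 in integrated strains. How peaks other than start peaks divide between the contexts elsewhere was not counted. On the reverse strand, between the end of PIR3 and the insertion, a peak was called in 4 of 4 integrated libraries and in 0 of 4 episome libraries. It was picked out after its values were seen, and no test was run on it. Its height was 38.1 and 39.8 RPM in HPRT1 integrated replicates 1 and 2, with 5′ ends 229 and 219 bp left of the last native base. In HPRT1R integrated replicates 1 and 2 it was 124 and 68.4 RPM, with 5′ ends 68 and 173 bp from that base. The peaks are directed towards PIR3 and their 5′ ends lie 743 to 904 bp beyond the end of its coding sequence. The library with the highest of these peaks, HPRT1R integrated replicate 1, had no PIR3 start peak, whereas the HPRT1 integrated libraries had both. The part of this transcription in the PIR3 values was not tested.

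The other peaks were low. HPRT1R integrated replicates 1 and 2, in which PIR3 was not called, each had a forward peak between PIR1 and PIR3, of 16.8 and 16.9 RPM, whose 5′ end lay 751 and 548 bp upstream of the PIR3 start codon. These are outside the window used for a start peak, also when it was widened to 500 bp. HPRT1R episome replicate 2 had a forward peak of 29.6 RPM within PIR3, at base 632 of the coding sequence. HPRT1 integrated replicate 2 had a forward peak of 15.7 RPM whose 5′ end lay just beyond the end of PIR1 and a reverse peak of 32.95 RPM that began 39 bp beyond the end of HSP150. Both peaks were 200 bp wide, the length to which reads were extended. Their reach into the coding sequence on the opposite strand therefore need not mark starts there. No peak in any library had its 5′ end within a PIR gene on the opposite strand.

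**Figure D3:**
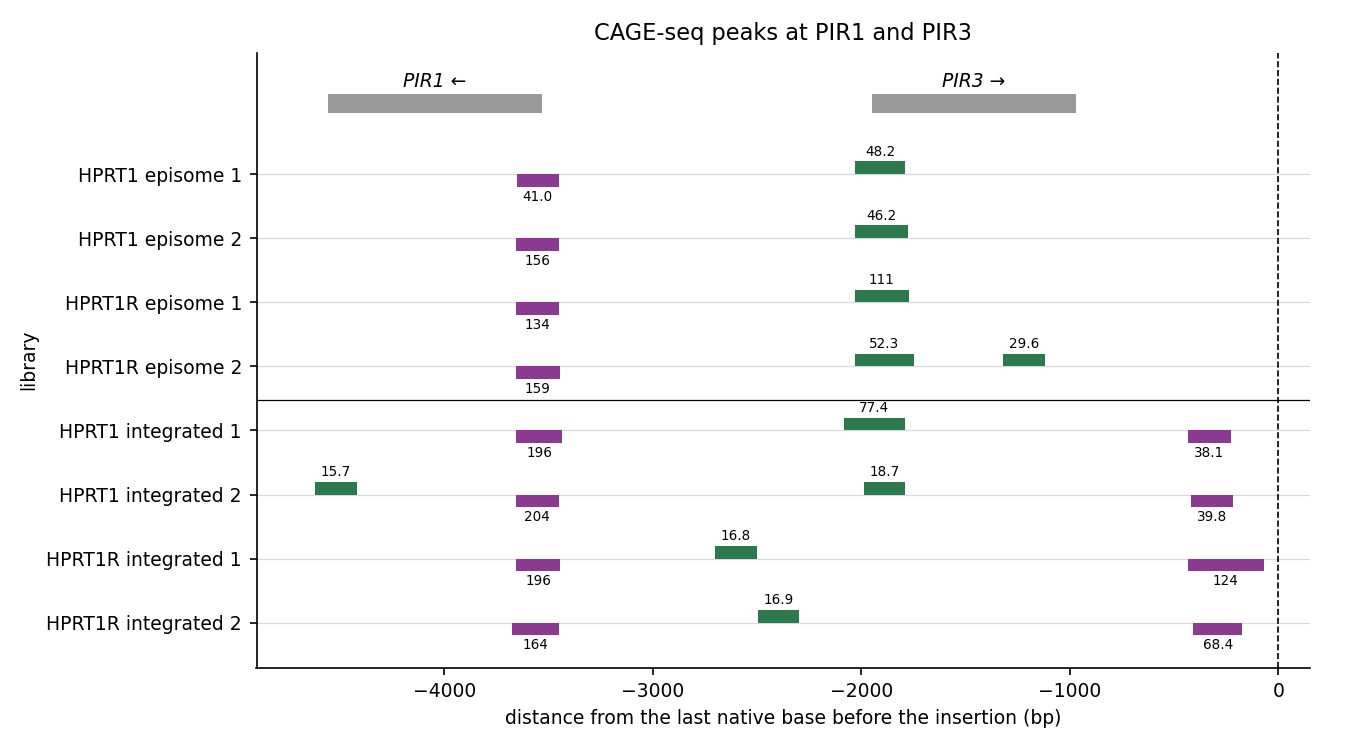
Peaks around PIR1 and PIR3 by library, against the distance in bp from the last native base before the insertion (dashed line), with forward-strand peaks drawn above and reverse-strand peaks below each line and their heights in RPM beside them. Grey bars are coding sequences with arrows for the strand. The reverse-strand peak between PIR3 and the insertion is present in the 4 integrated libraries only, at 38.1 to 124 RPM.

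**Figure D4:**
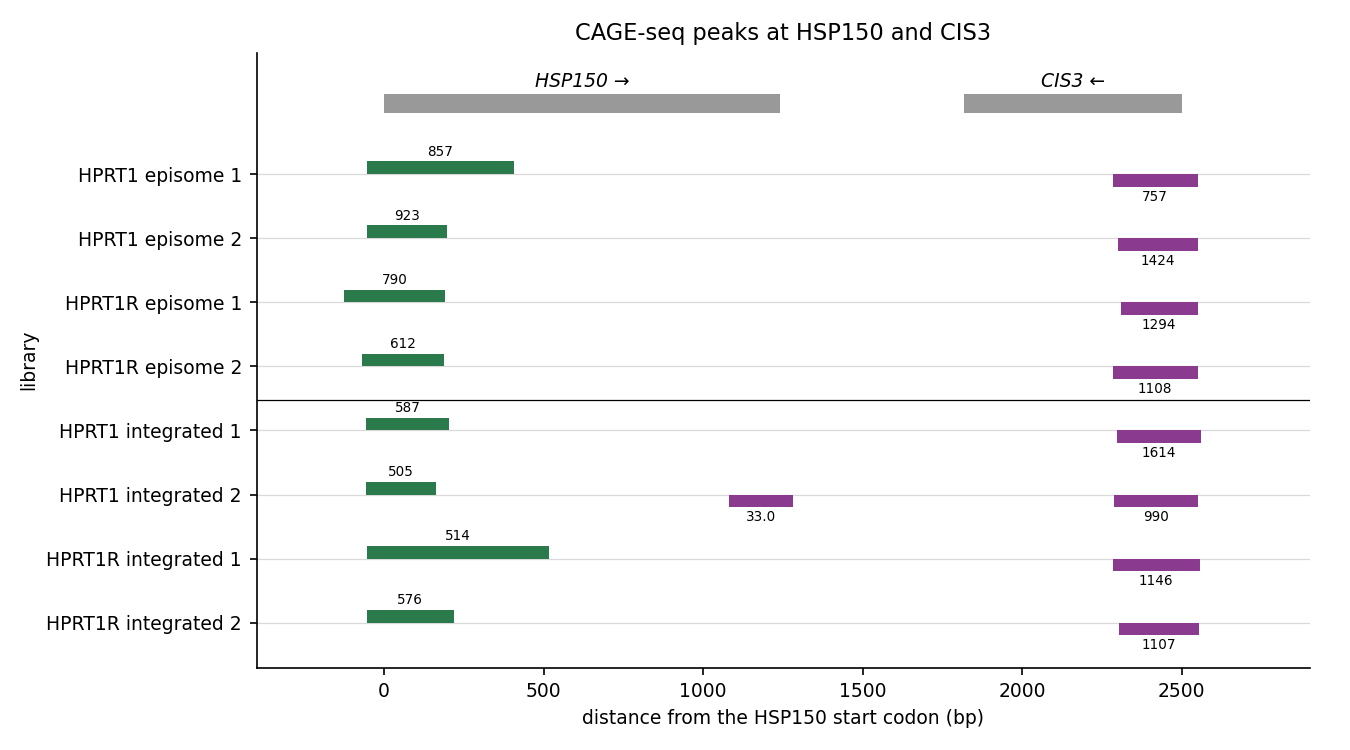
Peaks around HSP150 and CIS3 by library, against the distance in bp from the HSP150 start codon, drawn in the same way. Both start peaks are present in all 8 libraries, and 1 further peak of 32.95 RPM is seen in HPRT1 integrated replicate 2.

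The choice of reference and shared sequence were checked for these genes. Each member peak had the same number of reads whether it was called with the synthetic locus as a separate sequence or within chromosome XI, in 8 of 8 libraries for PIR1, HSP150 and CIS3 and in 6 of 6 for PIR3. Of the 351 possible positions of a 75-base read in the start window, 7 in PIR1 and 7 in PIR3 gave a sequence found more than once in the genome, all at least 38 bp inside the coding sequence, and none in HSP150 or CIS3. By exact match, reads at the called 5′ ends had a single place in the genome. Within the coding sequence such positions numbered 10 in PIR1, 10 in PIR3, 12 in HSP150 and 0 in CIS3.

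For each member, the genes with the most similar profile over the 8 libraries were found among the genes with a start peak in all 8, by the root mean square difference of log2 heights centred on each gene's mean. For HSP150 these were YNL208W (0.084), CCW14 (0.13), which encodes a GPI-anchored protein of the inner wall, and ADO1 (0.17), the adenosine kinase gene. The median over all genes was 0.61. For CIS3 they were FMP10 (0.16), ERP2 (0.18), of the p24 family of cargo transport, and CPR1 (0.22), the gene of cyclophilin A, with a median of 0.58. For PIR1 they were NIF3 (0.27), LSM5 (0.29), of the Lsm RNA-binding complex, and GAR1 (0.36), of the H/ACA small nucleolar ribonucleoprotein, with a median of 0.84. For PIR3 the nearest were SWI3 (0.64), of the SWI/SNF complex, TRX3 (0.65), mitochondrial thioredoxin, and CTT1 (0.69), cytosolic catalase, with a median of 1.38. PIR3 itself was called in 6 libraries, and genes that also lacked a peak in some libraries were not among those searched.

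Other genes of wall synthesis were described from 4 lists taken from general knowledge. None of their members passed the test in either direction, and the counts stand beside 1395 positive and 1063 negative differences over all 2458 genes. In the integrity signalling list, 7 of 16 genes were tested, 5 with positive and 2 with negative differences, and the median log2 difference was 0.63. The 2 with the highest mean were MKK1 (61.8 RPM, log2 difference −0.19, SE 0.39, adjusted p = 0.911 by limma), a kinase of the cascade, and RHO1 (55.7 RPM, log2 difference 0.86), the GTPase at its head. RLM1 itself had no start peak in any library.

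For glucan and chitin synthesis and remodelling, 12 of 21 genes were tested, with 6 positive and 6 negative differences and a median of 0.10, the same as over all genes. BGL2, an endoglucanase of the wall, was at 131.9 to 201 RPM in episome and 216.0 to 349.8 RPM in integrated libraries without overlap (log2 difference 0.53, adjusted p = 0.617 by limma). Groups without overlap in this direction numbered 1 of the 12 tested here, beside 4.68% of all genes tested. SCW4, a related wall protein, had a log2 difference of 0.56. Of the genes of O-mannosylation and Kex2 processing, which modify PIR proteins on their way to the wall, 5 of 11 were tested. KEX2 itself had no start peak in any library, so the 5 tested are genes of O-mannosylation only. All 5 differences were positive, with a median of 0.32, and KRE2 and KTR1, both mannosyltransferases, had 0.32 and 0.17.

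The GPI-anchored wall proteins are the other class of covalently bound wall protein. In this list 10 of 18 genes were tested, 4 with positive and 6 with negative differences, with a median of −0.06. CCW12, whose start peak was the highest of the list, had a mean of 4661 RPM and a log2 difference of −0.09. SPI1, induced on entry into stationary phase, was at 3912 to 5652 RPM in episome and 2085 to 3153 RPM in integrated libraries without overlap (log2 difference −0.94, SE 0.30, adjusted p = 0.366 by limma). TIR1, a wall mannoprotein of the same list, went the other way, at 55.1 to 181 RPM in integrated libraries and at most 58.0 RPM in episome libraries (log2 difference 2.60, SE 0.65, adjusted p = 0.201 by limma). Its peak was called in 5 of 8 libraries, and those without it were all episome libraries, set at the lowest height called. The size of the TIR1 difference rests on these stand-in values, and TIR1 met the limit of 4 libraries through the integrated ones. CCW14, named above as close to HSP150, was at 830.5 to 961 RPM in episome and 632 to 756 RPM in integrated libraries, without overlap like SPI1. Groups without overlap in this direction numbered 2 of the 10 tested here, beside 3.21% of all genes tested. CCW14 was named for its likeness to HSP150, which had no overlap either, so its separation is not a further observation. The 4 PIR genes had 2 positive and 2 negative differences and a median of −0.22.

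**Figure D5:**
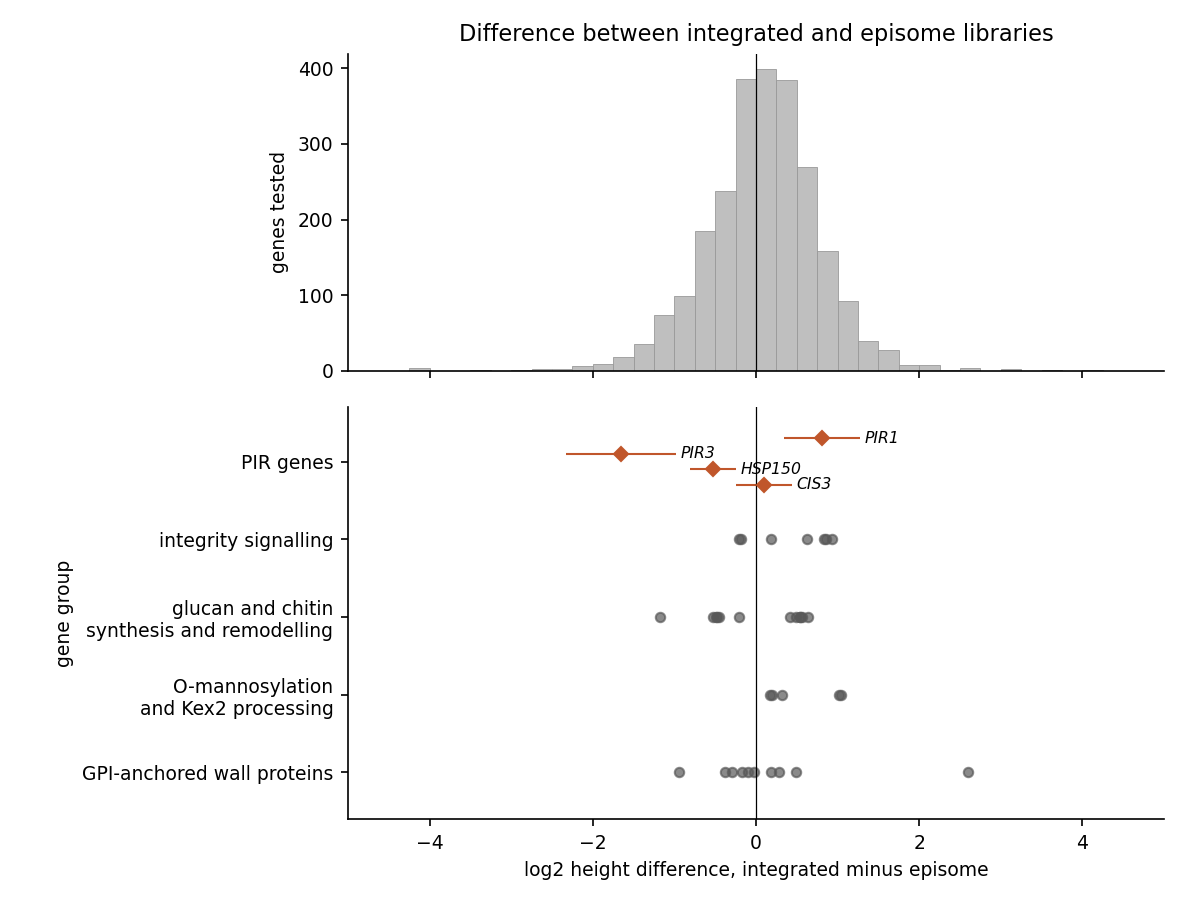
Distribution of the log2 height difference, integrated minus episome, over the genes tested (upper panel, 1 gene lies outside the range drawn), and the differences of the PIR genes with their SE and of the genes in 4 wall lists (lower panel, 1 point per gene). PIR1 at 0.81 and PIR3 at −1.66 lie on opposite sides of 0, and none of the genes drawn in the lower panel passed the test.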

How the data were processed

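CAGE-seq libraries were made by the authors from total RNA of 8 yeast cultures and sequenced with 75-bp paired reads. The 5′ reads were aligned with Bowtie2 2.2.9 to sacCer3 with the synthetic sequence added, and peaks were called with MACS2 2.1.0 per library and strand without a control, with duplicates kept. Samples were grouped by their titles.

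The deposited lists give a score, a fold enrichment (a ratio of summit pileup to local background, each with 1 added), and −log10 p and −log10 q values (p-value and q-value of the authors' Poisson test). In 51526 of 51527 peaks the deposited score was −log10 q times 10, cut to a whole number. No read counts are given, so pileup and background were solved from fold and p. For pileups below 2000, 100% of 45253 solutions were within 0.05 of an integer. Aligned reads were taken from the lowest background, with a 200-bp extension and a genome of 12000000 bp. The lowest pileup called was 61 to 75 reads on the forward and 93 to 125 reads on the reverse strand. The methods mention no molecular identifiers, so these limits cover counting error only.

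Native chromosomes of the lists made with the vector as a separate sequence were used, with genes from RefSeq on R64. The tallest start peak of a gene was taken, and uncalled starts were set at the lowest height called on that strand. Log2 heights were fitted with limma 3.58.1 in R 4.3.3 with terms for context and locus, and p-values were adjusted over 2458 genes at 0.05. The interaction was fitted in a model of 4 groups. Members were also compared by an exact two-sided permutation test over 70 splits. Replicates were separate colonies. Both the recovery and the fit were tested on simulated data, and the fit did not call the smallest simulated differences. A member that did not pass the test may therefore still differ.

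The members and the gene lists were chosen with earlier results of these data known. Named genes were the 4 members, PIR5, neighbours, the 3 nearest profiles of each member, and the genes past the threshold in each list or else the 2 with the highest mean. RLM1, KEX2 and TIR1 were named after their values were seen. One motif that was searched is not reported here. Alternatives were the start window, the reference, minimum q and fold, the treatment of uncalled starts, the scale, the model and leaving out each library. Lists of all peaks in the synthetic locus and the vector were not used here.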

Additional observations from a re-analysis of the deposited data

Results flagged for a closer look

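The start peak of PIR3 had 1 library far from the other 3 of its context in both contexts. In episome libraries it was HPRT1R replicate 1 with 111 RPM, where the other 3 had 46.2, 48.2 and 52.3 RPM. In integrated libraries it was HPRT1 replicate 1 with 77.4 RPM, where replicate 2 had 18.7 RPM and the HPRT1R libraries had no peak and were set at 9.29 and 9.65 RPM. The gap to the nearest library was 0.905 and 0.862 of the range. The second rests on the height given to the 2 libraries without a peak, and with 0.5 of that height, tried after seeing the data, it was 0.807 and no longer stood out. In all, 8 groups of 4 libraries were looked at in this way, and chance flags about 1 in 20 such groups.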

How the results depend on the processing

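The 4 members kept their side of the threshold between contexts under every alternative that gave a value. PIR1, PIR3 and HSP150 also kept their direction, with log2 differences of 0.32 to 1.09, −2.34 to −0.31 and −0.65 to −0.05. CIS3 turned to −0.02 with the median of ratios as the scale, and leaving out 1 library gave −0.12 to 0.24, negative without HPRT1 episome replicate 1 (−0.12) or HPRT1 integrated replicate 1 (−0.08). PIR3 could not be fitted among genes called in all 8 libraries. Between HPRT1R and HPRT1, the difference of PIR3 turned to 0.69 with uncalled starts left out. Leaving out 1 library gave −0.13 to 0.64 for PIR1, negative without HPRT1 episome replicate 1, and −1.14 to 0.02 for PIR3, positive without HPRT1 integrated replicate 1. For CIS3 it gave −0.20 to 0.20, with −0.20, −0.08 and −0.06 without HPRT1 episome replicate 1, HPRT1 integrated replicate 2 and HPRT1R episome replicate 1. The cause was not tested. Over all genes, 3 were higher in integrated libraries, and 1 with uncalled starts left out, 7 with them at 0.5 of the lowest height and 1 among genes called in all 8 libraries. Leaving out 1 library gave 0 to 3. Of genes higher in episome libraries there were 5, and 11 with the window of 150 bp, 8 with a minimum −log10 q of 20, 16 with a minimum fold of 4 and 10 without the term for locus. Leaving out 1 library gave 1 to 7.

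Replicate numbers did not pair the samples, since differences between replicates 1 and 2 had correlations of −0.06 to 0.01 over 1190 genes between the groups. With the replicate number as a block, 2 genes were higher in integrated and 5 in episome libraries, the PIR1 and PIR3 differences were 0.81 and −1.66 and no call of a member changed. A start with fewer reads than the lowest height called was not detectable. For PIR3 in HPRT1R integrated replicates 1 and 2, that height was 73 and 68 reads. These libraries had the most genes with a start peak, 2449 and 2588. HPRT1R episome replicate 2, the library with the fewest aligned reads, had a PIR3 peak of 339 reads. Whether depth accounts for the uncalled PIR3 starts was not tested.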
